A study of Arabidopsis thaliana with 6 samples.

Results

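The cold response genes examined here were CBF1, CBF2 and CBF3, which encode transcription factors, ICE1, which encodes a regulator above them, and 6 targets, COR15A, COR15B, COR47, RD29A, KIN2 and GolS3. They were taken from the deposited gene counts by their locus identifiers, as a known pathway with earlier results of these data in view, and made 10 of the 32678 genes in the table. Leaf RNA came from 35S:RPS4 plants and from Col-0 plants, with 3 libraries per genotype. The 35S:RPS4 plants are Col-0 plants with the transgene 35S:RPS4-HS, in which the constitutive viral 35S promoter drives RPS4, a TIR-NBS-LRR immune receptor. Both genotypes grew at 28 °C for 3.5 weeks and were sampled 2 h after transfer to 19 °C, a treatment that releases RPS4 signalling from its inhibition by warmth. All 6 libraries thus had the same temperature shift, no library from before it is analysed here, and the comparison asks how the genotypes differ after the shift, not how either responds to cooling.

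In Arabidopsis, chilling induces the CBF genes within a short time. The CBF proteins, AP2-type factors also named DREB1, bind the C-repeat or dehydration-responsive element in promoters of COR (cold-regulated) genes, whose products protect membranes and proteins when water freezes. ICE1, a basic helix-loop-helix factor, binds CBF promoters, and the circadian clock and CAMTA calmodulin-binding factors also act on them.

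Gene counts summed to 30915309, 31007551 and 29835605 in the 35S:RPS4 libraries and to 29465338, 28659022 and 30237250 in the Col-0 libraries. RPS4 (AT5G45250) had 604.9, 759 and 906.9 CPM (counts scaled to a common library size, with TMM factors) in 35S:RPS4 and 21.17, 29.8 and 30.2 CPM in Col-0, a log2 fold change (log2FC, 35S:RPS4 minus Col-0) of 4.81 ± 0.22 (standard error, SE) with FDR = 3.252e-05 in edgeR's quasi-likelihood test. Reads of the transgene and of the native gene cannot be told apart. The 5 leaf mesophyll markers summed to between 47620 and 54150 CPM in 35S:RPS4 and between 47600 and 49890 CPM in Col-0, while the 3 root markers summed to at most 1.29 CPM in 35S:RPS4 and 1.33 CPM in Col-0 (leaf tissue would give this). Of the other cell types in a leaf, the 3 guard cell markers summed to 47.5 to 48.3 CPM in 35S:RPS4 and 37.8 to 38.2 CPM in Col-0, and their part in the results was not tested, while the 2 epidermis markers (152 to 181 CPM in 35S:RPS4 and 171 to 223 CPM in Col-0) and the phloem marker SUC2 (269 to 275 CPM in 35S:RPS4 and 248 to 323 CPM in Col-0) overlapped. None of these markers was called. In whole leaves, fewer cells of a type and less RNA per cell cannot be told apart.

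The promoters are shown first, for the sites of clock factors and of CBF proteins that some of them carry. The CBF genes lie in a row on chromosome 4. In each of the 3, the 250 bases before the annotated gene start held AAATATCT, the string searched here as the evening element. The evening element is a site through which clock factors act. None of the other genes had it in that window, and 4.79% of 27997 Arabidopsis windows of this length did. COR15A, COR15B and KIN2 had it in a longer window that ends at the start codon (below). The sequences below read 5′ to 3′ along each gene's own strand from the TAIR10.1 assembly, with the element in capitals (AGATATTT where it lies on the other strand). They come from chr4:13022997-13023246 (CBF1), chr4:13016236-13016485 (CBF2) and chr4:13019401-13019650 (CBF3), all on the reverse strand.
CBF1: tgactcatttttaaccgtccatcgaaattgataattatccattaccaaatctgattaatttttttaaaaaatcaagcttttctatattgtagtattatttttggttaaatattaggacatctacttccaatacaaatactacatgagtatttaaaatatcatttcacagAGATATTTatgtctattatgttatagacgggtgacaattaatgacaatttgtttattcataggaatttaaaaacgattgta
CBF2: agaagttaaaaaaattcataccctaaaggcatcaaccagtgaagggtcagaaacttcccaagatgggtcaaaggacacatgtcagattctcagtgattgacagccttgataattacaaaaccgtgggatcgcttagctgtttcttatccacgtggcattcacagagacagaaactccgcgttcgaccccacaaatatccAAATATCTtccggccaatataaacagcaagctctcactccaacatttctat
CBF3: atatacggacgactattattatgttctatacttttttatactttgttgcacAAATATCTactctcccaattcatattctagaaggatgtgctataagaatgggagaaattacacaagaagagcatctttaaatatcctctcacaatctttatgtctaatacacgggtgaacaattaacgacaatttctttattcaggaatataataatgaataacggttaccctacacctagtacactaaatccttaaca

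Of the targets, COR15A, RD29A and GolS3 held CCGAC, the core of the element that CBF proteins bind, in the same window. It was in 11.9% of all windows, and COR15B, COR47 and KIN2 held neither element there. These 3 promoters are printed because GolS3 was called lowered and the other 2 genes were not, while all 3 have the core. CCGAC is in capitals, or GTCGG where it lies on the other strand, and the windows are chr1:3019389-3019638 (GolS3, forward strand), chr2:17712331-17712580 (COR15A, reverse strand) and chr5:21240467-21240716 (RD29A, forward strand).
GolS3: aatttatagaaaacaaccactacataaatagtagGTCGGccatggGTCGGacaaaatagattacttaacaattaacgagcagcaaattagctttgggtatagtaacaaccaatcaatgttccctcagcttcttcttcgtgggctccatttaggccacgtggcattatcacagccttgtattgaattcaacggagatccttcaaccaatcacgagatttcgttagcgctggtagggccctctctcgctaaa
COR15A: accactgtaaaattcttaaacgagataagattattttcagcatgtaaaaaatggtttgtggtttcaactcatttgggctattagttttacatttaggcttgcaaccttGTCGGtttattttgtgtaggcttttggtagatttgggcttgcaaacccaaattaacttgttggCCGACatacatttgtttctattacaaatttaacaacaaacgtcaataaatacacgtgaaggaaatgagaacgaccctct
RD29A: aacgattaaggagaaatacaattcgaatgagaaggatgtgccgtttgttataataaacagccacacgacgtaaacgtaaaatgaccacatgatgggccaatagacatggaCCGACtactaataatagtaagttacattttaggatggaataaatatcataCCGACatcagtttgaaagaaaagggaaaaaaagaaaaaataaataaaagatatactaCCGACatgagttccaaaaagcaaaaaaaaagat

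Counted from the gene start, the evening element began at -81 in CBF1, -51 in CBF2 and -199 in CBF3. The CCGAC cores began at -216 and -205 in GolS3, at -142 and -79 in COR15A and at -140, -90 and -33 in RD29A. In the 1000 bases before the start codon, a window chosen after the first was seen, CCGAC was found in all 6 targets and in none of the CBF genes or ICE1, against 39.3% of 26711 windows. The evening element was then found in the 3 CBF genes, COR15A, COR15B and KIN2, against 15.4% of windows. This longer window also takes in bases after the annotated gene start. The CCGAC cores of COR47 and KIN2 lay there. So did the cores that began at -266 in COR15A, -265 in COR15B and -208 in RD29A, counted from the start codon. The evening elements of COR15A and COR15B and 1 of the 2 in KIN2 lay there too. ACGTG, the core of the abscisic acid response element, was in the 3 CBF genes and all 6 targets in this longer window (54.4% of windows), and in CBF2, COR15A, KIN2 and GolS3 in the shorter one (22.8% of windows). For CAMTA sites, whose core the paper gives as CGyG (y is C or T), only CGCG was searched. It stood in the shorter window of CBF2 and ICE1 (10.1% of all windows). The other form, CGTG, lies within each ACGTG match. The E-box CANNTG, which factors such as ICE1 bind, stood in the shorter window of CBF2 and 5 targets (55.3% of all windows). Both strands were searched, CANNTG and ACGTG can overlap, and a match in a sequence does not show that a factor was bound.

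**Figure D1:**
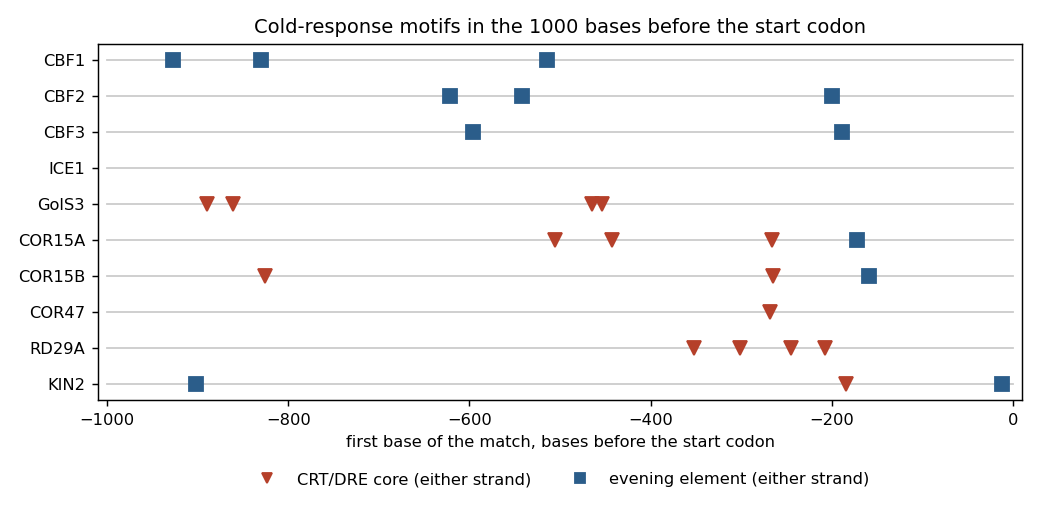
Positions of the evening element (squares) and the CCGAC core (triangles) in the 1000 bases before the annotated start codon of the 10 genes, in bases before that codon, on either strand. CCGAC is present in each of the 6 targets and absent from the CBF genes and ICE1 in this window, and the evening element is in the CBF genes and also in COR15A, COR15B and KIN2.

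CBF1 and CBF3 were lower in 35S:RPS4 than in Col-0, and CBF2 lay just outside the threshold with a like estimate. All 10 genes passed the filter on low counts, and 3 of them, CBF1, CBF3 and GolS3, were lowered at FDR below 0.01 and a change over 2-fold, thresholds under which 7.83% of the 18382 tested genes were called, 1.37% as lowered and 6.46% as raised. With the replicate number as a block the 3 lowered genes were CBF1, CBF2 and GolS3. At FDR below 0.05 with no fold threshold, without the block, CBF2 joined CBF1, CBF3 and GolS3, against 6.26% of all tested genes lower by that rule. None of the 10 was raised by edgeR, none was higher at an unadjusted p below 0.05 (4 were lower), by which rule 14.9% of all tested genes were higher and 13.1% lower, and DESeq2 and limma voom also raised none. The log2FC was below 0 for 10 of 10, with a median of -0.25, while the median of all tested genes was 0.01 and 9016 of the 18382 lay below 0.

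**Figure D2:**
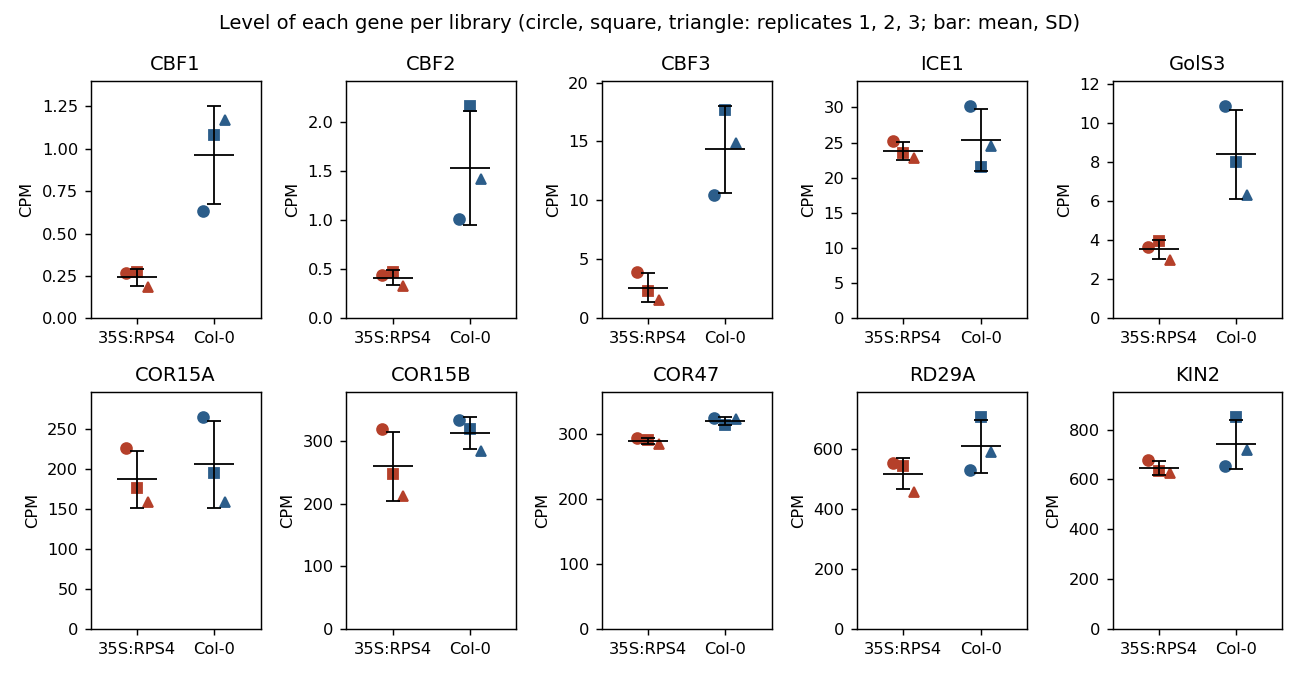
Level of each of the 10 genes in every library, in CPM on axes that start at 0, with 35S:RPS4 (red) left of Col-0 (blue), a circle, square and triangle for libraries 1, 2 and 3, and bars for the mean and SD. The genotypes are apart for CBF1, CBF2, CBF3, GolS3 and, narrowly, COR47, and their points mix for the other 5 genes.

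CBF3 (DREB1A, AT4G25480, chr4:13018010-13019400 in TAIR10.1) was the most abundant of the CBF transcripts. It had 117, 67 and 42 counts in the 35S:RPS4 libraries against 329, 524 and 482 counts in the Col-0 libraries. Scaled for library size, the levels were 3.93, 2.27 and 1.54 CPM in 35S:RPS4 and 10.4, 17.7 and 14.9 CPM in Col-0. The groups did not overlap, and the highest 35S:RPS4 library stayed well under the lowest Col-0 library. Mean CBF3 was 2.58 ± 1.22 CPM in 35S:RPS4 and 14.3 ± 3.65 CPM in Col-0 (SD, n = 3 each). This was a 5.52-fold lower level, with a log2FC of -2.47 ± 0.35 (SE, 95% interval -3.29 to -1.64) and FDR = 0.003182 (edgeR).

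CBF1 (DREB1B, AT4G25490, chr4:13021780-13022996) was the rarest of the 10 transcripts, with 8, 8 and 5 counts in 35S:RPS4 against 20, 32 and 38 counts in Col-0. Its CPM were 0.268, 0.271 and 0.183 in 35S:RPS4 and 0.634, 1.08 and 1.17 in Col-0. The groups were again apart, and CBF1 fell 3.93-fold (log2FC -1.97 ± 0.38 SE, 95% interval -2.85 to -1.10, edgeR FDR = 0.009536), just inside the FDR threshold. CBF2 (DREB1C, AT4G25470, chr4:13015250-13016235) had 13, 14 and 9 counts in 35S:RPS4 against 32, 64 and 46 in Col-0, or 0.436, 0.475 and 0.329 CPM against 1.01, 2.16 and 1.42 CPM. Its libraries did not overlap either, and its estimate of -1.87 ± 0.36 (SE, 95% interval -2.72 to -1.02) was close to that of CBF1. With an edgeR FDR of 0.01055, however, CBF2 missed the threshold by a narrow margin and was not called.

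Summed over the 3 factors, CBF transcripts made 4.63, 3.02 and 2.05 CPM in 35S:RPS4 and 12.1, 20.9 and 17.5 CPM in Col-0. CBF3 contributed most of them in every library, at 84.8, 75.3 and 75.0% of the CBF counts in 35S:RPS4 and 86.4, 84.5 and 85.2% in Col-0. Library 1 of each genotype stood nearest to the other genotype in this sum. The 35S:RPS4 library 1 had the highest CBF3 and the lowest RPS4 of its group, Col-0 library 1 had the lowest CBF3 and the lowest RPS4 of its own, and whether the levels are linked was not tested.

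The CBF counts were low, and the calls depended on single libraries, whereas the direction did not. Over 16 alternative analyses, shown for the 4 genes with the largest differences, the log2FC stayed between -3.10 and -2.21 for CBF3, between -2.30 and -1.80 for CBF1 and between -2.15 and -1.54 for CBF2, and the highest edgeR, DESeq2 or voom FDR was 0.0216 for CBF3, 0.0453 for CBF1 and 0.0492 for CBF2. The CBF3 call was lost without 35S:RPS4 library 2 (FDR = 0.02158), Col-0 library 2 (FDR = 0.01563) or Col-0 library 3 (FDR = 0.01457) in edgeR. That of CBF1 was lost when any library except Col-0 library 1 was left out (edgeR FDR 0.01955 to 0.04533) and in voom (FDR = 0.01821). CBF2, on the other hand, was called without Col-0 library 1 (edgeR FDR = 0.006283), in DESeq2 (FDR = 0.0004901), and in edgeR with 3 other scalings or with no filter on low counts (FDR 0.005395 to 0.006605). With replicate number as a block, edgeR called CBF1 and CBF2 (FDR = 0.003877) but not CBF3, whose log2FC remained at -2.47 (FDR = 0.01884).

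**Figure D3:**
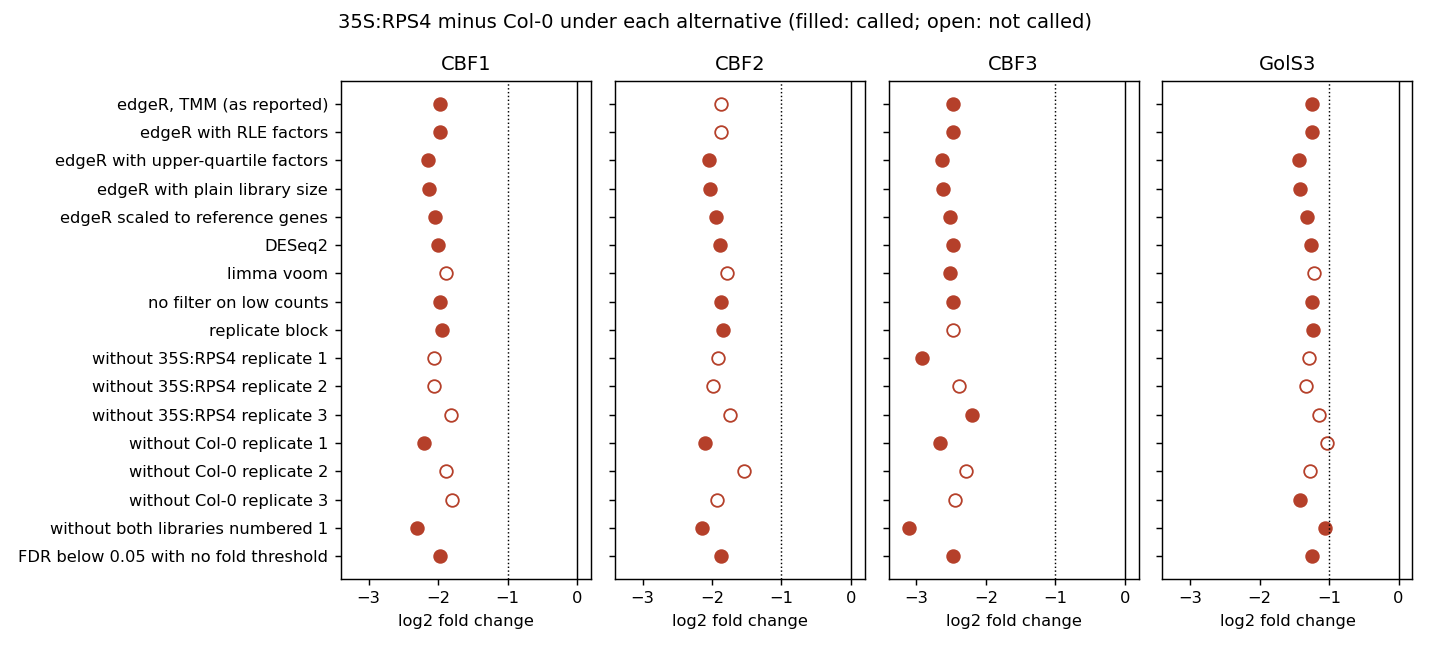
log2FC (35S:RPS4 minus Col-0) of CBF1, CBF2, CBF3 and GolS3 in the reported analysis (top) and in 16 alternatives, filled where the gene was called and open where it was not, with a dotted line at -1. All points lie left of that line, CBF3 between -3.10 and -2.21 and GolS3 between -1.43 and -1.03, and the open points are mostly those with a library left out.

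ICE1 (AT3G26744, chr3:9832667-9835279), the helix-loop-helix factor above the CBF genes, did not differ detectably. Its levels were 25.3, 23.4 and 22.8 CPM in 35S:RPS4 and 30.1, 21.5 and 24.5 CPM in Col-0, so that the groups overlapped. The log2FC was -0.09 ± 0.13 (SE, edgeR FDR = 0.7181), and the 95% interval of -0.39 to 0.21 leaves out a 2-fold change in either direction. Without Col-0 library 1 the estimate changed sign, to 0.04.

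GolS3 (AT1G09350, chr1:3019639-3021443) encodes a galactinol synthase, which makes the precursor of the raffinose sugars that accumulate in the cold. It was the only COR target that was called. The libraries held 109, 116 and 81 counts in 35S:RPS4 against 342, 237 and 205 in Col-0, or 3.66, 3.94 and 2.96 CPM against 10.8, 7.99 and 6.33 CPM. All 3 libraries of 35S:RPS4 lay under all 3 of Col-0. GolS3 fell 2.38-fold, with a log2FC of -1.25 ± 0.22 (SE, 95% interval -1.76 to -0.74) and FDR = 0.006506 (edgeR). The call held without Col-0 library 3 (edgeR FDR = 0.007051) and with the replicate block (FDR = 0.000464). Leaving out any other single library ended it (edgeR FDR 0.01028 to 0.03157), as did voom (FDR = 0.01434), with log2FC between -1.43 and -1.03 over all 16 alternatives.

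The other 5 targets were abundant in both genotypes and were not called. COR47 (AT1G20440, chr1:7084409-7086873), a dehydrin that shields membranes and proteins from loss of water, had 294.8, 290.7 and 285.3 CPM in 35S:RPS4 and 324.9, 314.2 and 323.1 CPM in Col-0. These groups did not overlap, yet the difference was small, with a log2FC of -0.14 ± 0.06 (SE, edgeR FDR = 0.1814). In all, 5 of the 10 genes had groups apart in this direction (the 3 CBF genes, GolS3 and COR47), against 16.3% of all tested genes, and none had groups apart with 35S:RPS4 higher, against 17.9%.

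RD29A (COR78, AT5G52310, chr5:21240717-21243644), the standard reporter of cold and drought signalling, was at 555.9, 543.9 and 458.9 CPM in 35S:RPS4 and 531.9, 708.1 and 590.6 CPM in Col-0 (log2FC -0.23 ± 0.12 SE, edgeR FDR = 0.2836). KIN2 (COR6.6, AT5G15970, chr5:5211719-5212743), a small hydrophilic protein, was at 679.3, 634.8 and 625.9 CPM in 35S:RPS4 and 655.6, 850.0 and 716.8 CPM in Col-0 (log2FC -0.20 ± 0.10 SE, edgeR FDR = 0.2767). In both genes Col-0 library 2 was the highest and Col-0 library 1 fell among the 35S:RPS4 libraries.

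COR15A and COR15B encode chloroplast proteins that stabilise membranes during freezing and lie 8 bp apart in the same orientation. COR15B (AT2G42530, chr2:17708593-17710433) had 319.7, 247.7 and 211.7 CPM in 35S:RPS4 and 333.6, 319.8 and 284.7 CPM in Col-0 (log2FC -0.27 ± 0.15 SE, edgeR FDR = 0.3121). COR15A (AT2G42540, chr2:17710441-17712330) had 225.9, 175.6 and 158.1 CPM in 35S:RPS4 and 264.4, 194.4 and 157.9 CPM in Col-0 (log2FC -0.14 ± 0.21 SE, edgeR FDR = 0.7405). For COR15A the spread within a genotype exceeded the difference between genotypes, and without Col-0 library 1 its estimate was 0.08.

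The 95% intervals of these 5 targets all leave out a 2-fold fall, the nearest being those of COR15A, which reached -0.64, and COR15B, which reached -0.62 on the log2 scale. Summed over the 6 targets, transcripts made 2079, 1897 and 1743 CPM in 35S:RPS4 and 2121, 2395 and 2079 CPM in Col-0. None of the 5 was called under any of the 16 alternatives, but some passed FDR below 0.05 at under 2-fold. COR47 and KIN2 did so in edgeR with upper-quartile factors (log2FC -0.32, FDR = 0.01901, and -0.37, FDR = 0.04205) and with plain library size, scalings that lower the median of all genes to -0.17 and -0.16. COR15B did so with the replicate block (-0.29, edgeR FDR = 0.03574), without 35S:RPS4 library 1 (-0.45, FDR = 0.02394) and, with KIN2 (-0.33, FDR = 0.03115) and RD29A (-0.39, FDR = 0.03855), without both libraries numbered 1 (-0.41, FDR = 0.01396).

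**Figure D4:**
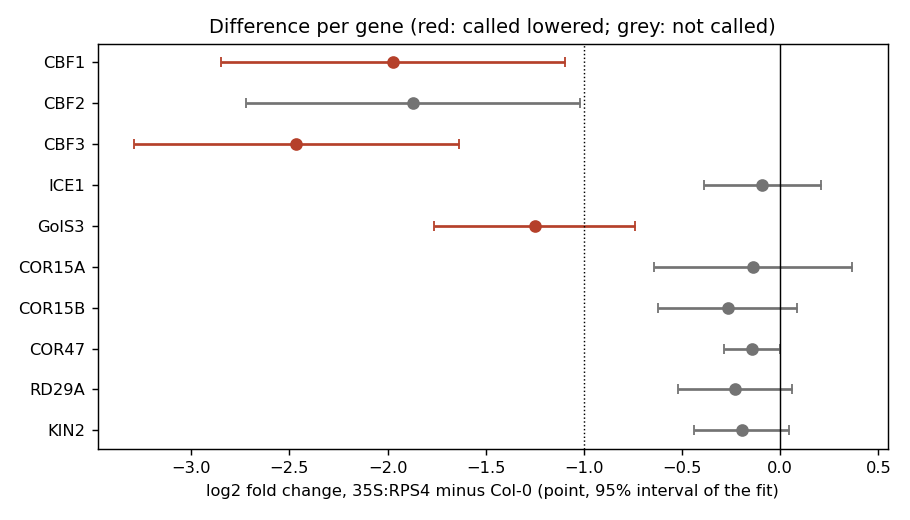
log2FC (35S:RPS4 minus Col-0) of the 10 genes with 95% intervals from the edgeR fit, where 0 is no difference and the dotted line at -1 is a 2-fold fall. CBF3 at -2.47, CBF1 at -1.97, CBF2 at -1.87 and GolS3 at -1.25 lie beyond that line, and the other 6 lie between -0.27 and -0.09.

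Per length of transcript (RPKM, the CPM divided by the annotated exon length in kilobases), the genes kept the same order in both genotypes except for CBF3, GolS3 and ICE1. KIN2 was the most abundant, at 862 ± 38.2 RPKM in 35S:RPS4 and 988 ± 133 RPKM in Col-0 (SD, n = 3 each, here and below). RD29A followed at 195 ± 19.9 RPKM in 35S:RPS4 and 229 ± 33.7 RPKM in Col-0, not apart from COR15B at 164 ± 34.7 RPKM in 35S:RPS4 and 197 ± 15.9 RPKM in Col-0. COR47, at 125 ± 2.05 RPKM in 35S:RPS4 and 138 ± 2.47 RPKM in Col-0, did not differ beyond the spread from COR15A, at 118 ± 22.2 RPKM in 35S:RPS4 and 129.8 ± 34.2 RPKM in Col-0. The factors and GolS3 lay far below these targets. ICE1 stood at 9.45 ± 0.51 RPKM in 35S:RPS4 and 10.1 ± 1.74 RPKM in Col-0, and GolS3 at 2.28 ± 0.32 RPKM in 35S:RPS4 and 5.42 ± 1.47 RPKM in Col-0. CBF3 was at 1.85 ± 0.88 RPKM in 35S:RPS4, not apart from GolS3, and at 10.3 ± 2.63 RPKM in Col-0, not apart from ICE1. CBF2 and CBF1 were the lowest, at 0.419 ± 0.077 and 0.198 ± 0.041 RPKM in 35S:RPS4 and 1.55 ± 0.59 and 0.791 ± 0.237 RPKM in Col-0.

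Over the 6 libraries the CBF genes varied together, with Pearson r of log2(CPM + 0.5) between 0.95 and 0.96 for their 3 pairs. GolS3 and COR47 tracked CBF3 at 0.86 and 0.93, COR15A and ICE1 only at 0.26 and 0.15. RD29A and KIN2 varied together at 0.94. These values describe 6 libraries of 2 genotypes, so that any 2 genes that differ between the genotypes correlate.

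Several of the genes have close copies, which matters for how reads were assigned. Coding sequences were 86.3% identical between CBF1 and CBF2, 85.0% between CBF1 and CBF3 and 86.7% between CBF2 and CBF3, 82.6% between COR15A and COR15B, and 95% between KIN2 and its neighbour KIN1 (AT5G15960). Stretches of 50 exon bases found elsewhere in the genome made up 3.95% of CBF2, 2.48% of CBF1, 0.596% of CBF3 and 0.166% of KIN2, and none of the other 6, and no stretch of 100 bases was shared by any of the 10. KIN1 was far less abundant than KIN2, with 5.90, 6.17 and 5.67 CPM in 35S:RPS4 and 4.28, 3.81 and 2.90 CPM in Col-0. Its log2FC of 0.69 ± 0.16 (SE, edgeR FDR = 0.02486) was above 0 while that of KIN2 was below, and it was not called. COR15B shares 468 bp with AT2G42520 on the opposite strand, and the library kit does not mark strand. AT2G42520 had a log2FC of 0.13 (edgeR FDR = 0.3419), and of -0.05 under upper-quartile scaling. CBF3 shares 29 bp with AT4G07385 on the opposite strand, whose counts were not examined.

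Of 23 other COR and CBF regulon genes, 22 were tested, with a median log2FC of -0.13. Of these, edgeR lowered 1 and raised 0, against 1.37% and 6.46% of all tested genes. At an unadjusted p below 0.05, 1 was higher and 5 were lower, against 14.9% and 13.1% of all tested genes, and DESeq2 and voom also raised 0. The lowered gene was AT1G51090, annotated as a heavy metal transport/detoxification protein, at 5.77, 5.73 and 4.20 CPM in 35S:RPS4 and 13.1, 11.9 and 9.33 CPM in Col-0 (log2FC -1.12 ± 0.18 SE, edgeR FDR = 0.003832). This call was lost without 35S:RPS4 library 2 or 3 or Col-0 library 1 or 2 (edgeR FDR 0.01106 to 0.02109). AT5G62360, of the plant invertase/pectin methylesterase inhibitor family, was just under the fold threshold at -0.96 (edgeR FDR = 0.0004728), and passed it when 35S:RPS4 library 1 (-1.04) or Col-0 library 1 (-1.04) was left out and under 3 other scalings (-1.14 to -1.03). The dehydrin ERD10, a relative of COR47, had a log2FC of 0.07 (FDR = 0.6176), which was -0.11 under upper-quartile scaling, and RD29B, the neighbour of RD29A, had 0.20.

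Of 15 other genes listed as DREB-type, 9 were tested, and RAP2.6, an ERF-type factor on that list, was not. Of the 9, 1 was lowered, 1 was raised and 7 were not called, with a median log2FC of -0.37. Over all tested genes, 1.37% were lowered and 6.46% raised. At an unadjusted p below 0.05, 4 of the 9 were lower and 2 higher, against 13.1% and 14.9% of all tested genes. DEAR2, an AP2-type factor of the DREB family, fell to 1.11, 0.916 and 0.512 CPM in 35S:RPS4, against 3.39, 3.20 and 2.90 CPM in Col-0 (log2FC -1.89 ± 0.27 SE, edgeR FDR = 0.00265). DEAR1, a repressor in the same family, rose to 10.9, 18.3 and 21.4 CPM in 35S:RPS4, against 2.82, 4.86 and 5.47 CPM in Col-0 (log2FC 1.94 ± 0.32 SE, edgeR FDR = 0.006515). The DEAR2 call was lost without 35S:RPS4 library 2 (edgeR FDR = 0.01418), Col-0 library 2 (FDR = 0.01466) or Col-0 library 3 (FDR = 0.01291). The DEAR1 call held in no set of 5 libraries but the one without 35S:RPS4 library 1 (edgeR FDR 0.0128 to 0.02998 in the others), and was lost in voom (FDR = 0.01207) and with no filter (edgeR FDR = 0.01555). CBF4, a drought-related copy of the CBF genes, was below the filter.

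Other factors that cold is known to induce early, in parallel with the CBF genes, were mostly higher. Of 15 tested, with a median log2FC of 2.33, 10 were raised and 0 lowered, against 6.46% and 1.37% of all tested genes. The zinc finger gene ZAT12 had 62.7, 116.7 and 125.7 CPM in 35S:RPS4 and 0.349, 0.303 and 0.710 CPM in Col-0 (log2FC 7.78, edgeR FDR = 6.882e-05). ZAT10 had 387.0, 545.3 and 627.4 CPM in 35S:RPS4 and 1.46, 2.19 and 2.44 CPM in Col-0 (log2FC 7.998, edgeR FDR = 1.474e-05). The ethylene response factors ERF5 and ERF6 rose by 5.71 and 6.61 on the log2 scale, and the zinc finger genes ZAT6 and CZF1 by 6.84 and 5.38. These genes are also induced by many other stresses and by immune signalling. At an unadjusted p below 0.05, 12 were higher (14.9% of all tested genes were) and 1 lower (13.1% of all were), and DESeq2 and voom also lowered 0. In the number 1 libraries the list's median stood at -0.40 (35S:RPS4) and -0.49 (Col-0) log2 units relative to the other libraries of the genotype, and the part of this in the result was not tested.

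Genes known to act on CBF expression had a median log2FC of 0.01 (31 tested). Of these, 6 were raised and 0 lowered, against 6.46% and 1.37% of all tested genes. At an unadjusted p below 0.05, 7 were higher and 6 lower, against 14.9% and 13.1% of all tested genes, and DESeq2 and voom also lowered 0. The raised genes include both repressors and activators. ZAT12 (given above) and MYB15 are repressors, and MYB15, which binds CBF promoters, had 172, 459 and 317 counts in 35S:RPS4 against 0, 0 and 2 in Col-0, so that 35S:RPS4 had 512 times the Col-0 count after scaling for library size (95% interval 141 to 4235, counting error only). MYC2, a helix-loop-helix factor of jasmonate signalling, had 44.3, 67.5 and 65.9 CPM in 35S:RPS4 and 9.28, 11.1 and 12.4 CPM in Col-0 (log2FC 2.44 ± 0.19 SE, edgeR FDR = 0.000198). MPK3, a kinase that phosphorylates ICE1, rose by 4.23 on the log2 scale (FDR = 9.377e-05) and MEKK1, a kinase at the head of such cascades, by 1.71 (FDR = 0.0004646). CAMTA3, an activator of CBF genes, had 192.1, 286 and 297.2 CPM in 35S:RPS4 and 52.9, 60.4 and 62.5 CPM in Col-0 (log2FC 2.14 ± 0.18 SE, edgeR FDR = 0.0002361). CAMTA2, of the same family, was just under the fold threshold at 0.997 (edgeR FDR = 0.0006172) and was called in 5 of the 16 alternatives. CAMTA1 and CAMTA5 were not called, at -0.05 and -0.09. SCRM2, the close relative of ICE1, was not called at -0.48.

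Because the CBF genes are gated by the circadian clock, 14 clock genes were examined, and edgeR called none (against 7.83% of all tested genes). Their log2FC ran from -0.93 to 0.17 with a median of -0.07, and 4 were lower and 0 higher at an unadjusted p below 0.05 (13.1% and 14.9% of all tested genes), while DESeq2 and voom called none. PRR5, a repressor of CBF genes, had 162.4, 101.7 and 90.7 CPM in 35S:RPS4 and 211.1, 239.1 and 227.0 CPM in Col-0 (log2FC -0.93 ± 0.21 SE, edgeR FDR = 0.02557), and was called without 35S:RPS4 library 1 (-1.24, FDR = 8.712e-05). Of 12 tested abscisic acid and drought markers, 1 was raised and 0 lowered, near the 6.46% and 1.37% of all tested genes. At an unadjusted p below 0.05, 2 were higher and 2 lower, also near the shares of all genes (14.9% and 13.1%), and DESeq2 and voom lowered 0. The raised gene was ABI1, a phosphatase that holds abscisic acid signalling back, with 187.8, 170.1 and 168.3 CPM in 35S:RPS4 and 74.8, 65.1 and 66.0 CPM in Col-0 (log2FC 1.35 ± 0.09 SE, edgeR FDR = 6.975e-05). Among 7 tested markers of warm growth, 1 was lowered and 0 raised, against 1.37% and 6.46% of all tested genes. At an unadjusted p below 0.05, 3 were lower and 0 higher, against 13.1% and 14.9%. The lowered gene was PRE1, a helix-loop-helix protein of cell elongation (log2FC -1.95 ± 0.33 SE, edgeR FDR = 0.005482). When single libraries were left out, only the set without 35S:RPS4 library 1 kept this call (edgeR FDR 0.01603 to 0.02722 in the others). The 8 reference genes lay between 0.00 and 0.15 on the log2 scale.

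**Figure D5:**
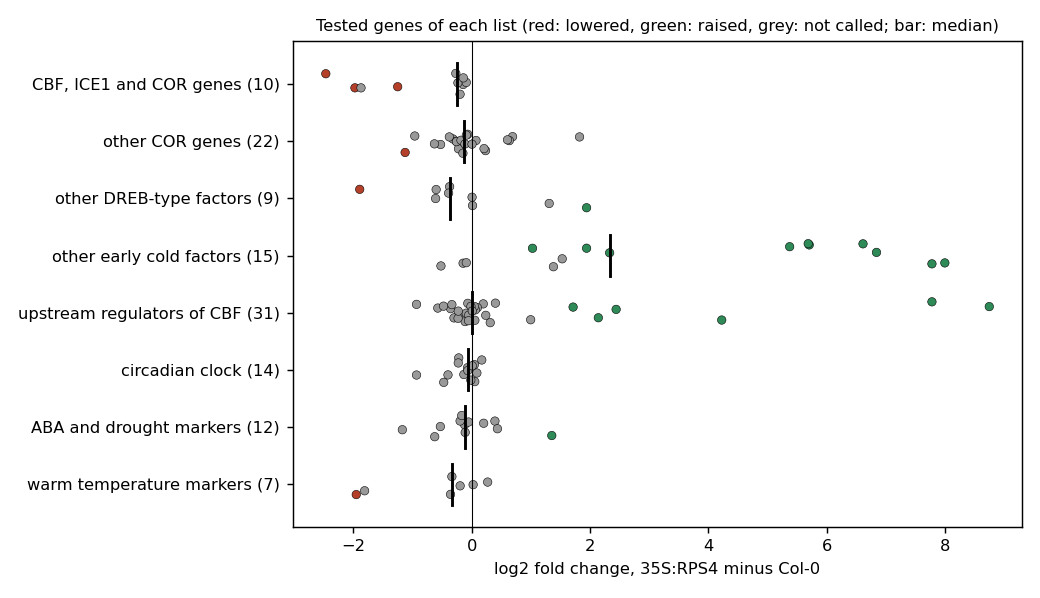
log2FC (35S:RPS4 minus Col-0) of the tested genes in each list, 1 point per gene, with the median of each list as a bar. The early cold factors other than CBF have a median of 2.33, against -0.25 for the 10 CBF, ICE1 and COR genes and -0.07 for the clock genes.

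The 5 genes outside these lists whose log2 CPM over the 6 libraries followed the mean of CBF1, CBF2 and CBF3 most closely were LSU4 (AT5G24655), a member of a family that responds to low sulphur, IDD2 (AT3G50700), a zinc finger protein, AT1G49500, AT1G10150 and ACHT4 (AT1G08570), a chloroplast thioredoxin, with Pearson r between 0.996 and 0.999. LSU4 had 0.704, 0.543 and 0.439 CPM in 35S:RPS4 and 1.43, 2.33 and 2.1 CPM in Col-0 (log2FC -1.78 ± 0.30 SE, edgeR FDR = 0.00522), a call lost without library 2 or 3 of either genotype (edgeR FDR 0.02536 to 0.028). IDD2 had 24.5, 22.2 and 19.96 CPM in 35S:RPS4 and 33.1, 42.9 and 38.2 CPM in Col-0 (log2FC -0.78, edgeR FDR = 0.003637). As with CBF3, Col-0 library 1 was the lowest of its group and 35S:RPS4 library 1 the highest of its own in both. Choosing genes by this correlation favours both that order and a difference between the genotypes. Of 18249 genes compared, 421 had r above 0.95, so that such likeness was common among these 6 libraries.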

How the data were processed

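Poly(A) RNA of leaves was sequenced after preparation with a TruSeq RNA v2 kit. The authors deposited raw counts of reads per gene, 1 column per library. Their processing notes name TAIR10, FastQC 0.11.2, TopHat2 2.0.10 and HTSeq, with roles, read length and strand setting not given in the sources used here. The 5 closing entries that name no gene held 6.45 to 8.30% of counts and were set aside.

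Counts were tested with edgeR 4.0.16 (R 4.3.3), scaled by TMM and filtered by filterByExpr, in robust quasi-likelihood fits on genotype alone. FDR is the Benjamini-Hochberg value over all 18382 tested genes, and calls needed FDR below 0.01 and more than a 2-fold change in either direction, as in the study (two-sided test). SE is the log2FC divided by the square root of F. Alternatives used other scalings, DESeq2 1.42.0, limma voom 3.58.1, no filter, a replicate block and libraries left out. Counting intervals cover counting error only.

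Nothing in the labels tells whether replicates came from different plants, and p-values then reflect only how these libraries vary, which may be technical. Libraries of a group differed beyond sampling noise (chi-square per gene 8.31 to 39.7). Deviations from the group means correlated between same-numbered libraries (r = 0.471, 0.179 and 0.307 for numbers 1 to 3) and ran from -0.379 to 0.186 between different numbers. Every same-number value was above 0.1, the rule used for pairing, although the value for number 2 was below the highest between different numbers. Deviations within a group cancel out, so likeness of the number 1 libraries alone raises the values among numbers 2 and 3. Those between 2 and 3 were 0.186 and 0.184, so the rule cannot show that these numbers pair. The reported fit has no block, and blocked values stand beside the results they change.

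The genes and lists were chosen with earlier results of these data known. Named are the 10 genes, RPS4, of each list at most 6 called genes by smallest FDR, close copies or neighbours, and the 5 genes most like the CBF mean. AT5G62360, PRR5, AT2G42520, RAV1, CAMTA1, CAMTA2 and CAMTA5 were named after their values were seen. Coordinates, exon lengths and sequences are from RefSeq TAIR10.1, in which 31912 of 32678 identifiers matched. Identity of coding sequence replaced a planned comparison of proteins.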

Additional observations from a re-analysis of the deposited data

How the results depend on the processing

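Of the 10 genes, the number lowered was 3 with RLE factors and 4 (CBF1, CBF2, CBF3 and GolS3) with upper-quartile factors, plain library size, scaling to reference genes, DESeq2, no filter on low counts, both libraries numbered 1 left out, or FDR below 0.05 with no fold threshold. It was 1 (CBF3) in limma voom and 0 to 3 with each library left out. None of the 10 was raised under any of the 16 alternatives. ICE1 ran from -0.19 to 0.042 and COR15A from -0.31 to 0.076 (log2FC) with each library left out, above 0 only without Col-0 replicate 1.

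The same choices moved the counts over all genes. Lowered genes numbered 251 as reported, 252 with RLE factors, 391 with upper-quartile factors and 377 with plain library size. They numbered 305 with scaling to reference genes and 239 in limma voom, all of 18382 tested. DESeq2 lowered 365 of 20835 tested genes, and the fit with no filter on low counts 255 of 24590. The number was 404 without both libraries numbered 1 and 99 to 337 with each library left out. Except with no filter, each setting that lowered CBF1, CBF2, CBF3 and GolS3 together lowered a larger share of all genes than reported. FDR below 0.05 with no fold threshold gave 1150 lowered and 1934 raised, and leaving out each library gave 841 to 1374 raised. Upper-quartile factors and plain library size shifted the median log2FC of all genes to -0.17 and -0.16, and the raised share of calls to 73.9% and 74.3%, against 82.6% as reported. Under these, the log2FC of ERD10 became -0.11 and -0.093 and that of AT2G42520 -0.051 and -0.037, all nearer to 0 than the shift itself.

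With a replicate block, 3 of the 10 genes were lowered, CBF2 being called in place of CBF3, and over all genes 330 were lowered and 1329 raised. The block changed the call of no other of the 10. CBF1 and CBF2 had 5 to 64 counts per library, so their values carry the largest relative counting error of the 10.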
